A study of Mus musculus with 16 samples.

Results

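Purinergic P2 receptors are described here by 7 genes of the 46078 in the count table, chosen by name. They are 4 members of the P2Y family, *P2ry1*, *P2ry10*, *P2ry12* and *P2ry14*, and 3 of the P2X family, *P2rx1*, *P2rx4* and *P2rx7*. Of the 7, 6 passed the filter on low counts, all but *P2ry12*. The set was chosen in view of these data, because *P2ry1* and *P2ry10* moved in opposite directions between the HSC populations 4 weeks after transplantation. For both genes the 4 week levels are therefore given as a description, without a test. The HSCs came from WT mice of strain B6.SJL and were sorted from bone marrow as LSK SLAM cells, which lack the lineage markers CD3e, B220, Gr, NK1.1 and Ter119 as well as CD48 and carry cKit, Sca1 and CD150, and were then divided by surface MAC-1, the integrin of CD11b (*Itgam*) and CD18 (*Itgb2*). Steady state (SS) HSCs were untreated, and 4 week HSCs came from recipients irradiated with 900 cGy that had received 8000 LSK cells 4 weeks earlier. The 16 samples were 3 SS MAC-1-, 3 SS MAC-1low, 3 4 week MAC-1-, 4 4 week MAC-1low and 3 4 week MAC-1+. RNA was amplified from few cells with SMART-Seq, and the values are counts of reads per gene or CPM, counts scaled to a common library size. Ages were not given, and no label says whether samples of a population came from separate animals, so that p-values measure the spread between these samples, which may be partly technical.

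P2 receptors sense extracellular nucleotides, which cells release when stressed, damaged or activated. P2X receptors are ATP-gated cation channels, whereas P2Y receptors are coupled to G proteins and respond to ADP, ATP, UTP, UDP or UDP-sugars. In blood, P2Y1, P2Y12 and P2X1 are best known from platelets, P2X7 from the release of interleukin-1 by macrophages, and P2Y14, the receptor for UDP-glucose, from hematopoietic stem and progenitor cells. P2Y10 is grouped with the family by sequence, but its known ligand is the lipid lysophosphatidylserine, and it is best known from lymphocytes.

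The libraries held 13781278 to 28580658 counts and 14533 to 17576 detected genes. The limit set by a count of 0 was 3 counts, or 0.112 to 0.220 CPM depending on the library. Such limits and all intervals cover counting error only, since the reads carry no molecular identifiers. *Kit*, *Ly6a* (Sca1) and *Slamf1* (CD150) were detected in every population. *Slamf1* fell to 2 counts in 1 of the 3 4 week MAC-1+ libraries, and *Cd48*, against which the cells were sorted, was present in 13 of the 16. *Itgam* averaged 14.04 ± 14.02 CPM (SD, n = 3) in 4 week MAC-1+ HSCs and 0.594 ± 1.03 CPM (n = 3) in 4 week MAC-1- HSCs, where it was at 0 in 2 libraries. It averaged 1.48 ± 1.96 CPM (n = 4) in 4 week MAC-1low, 1.08 ± 0.427 CPM (n = 3) in SS MAC-1low and 0.122 ± 0.132 CPM (n = 3) in SS MAC-1- HSCs. *Itgb2*, the other chain of MAC-1, went the opposite way from *Itgam* at 4 weeks. It had 26.8 ± 6.98 CPM (n = 3, 18.8 to 31.4) in MAC-1- and 13.2 ± 4.07 CPM (n = 3, 8.55 to 15.9) in MAC-1+ HSCs. These did not overlap, beside 21.7% of all tested genes. *Itgb2* averaged 11.9 ± 8.22 CPM (n = 4) in 4 week MAC-1low, 20.1 ± 17.8 CPM (n = 3) in SS MAC-1low and 5.90 ± 5.34 CPM (n = 3) in SS MAC-1- HSCs.

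The starts of *P2ry1* and *P2ry10* are shown because these genes had the contrasting levels. The lines below are promoter sequences from RefSeq on build GRCm38.p6, each running 5′ to 3′ on the plus strand from 250 bases before to 50 bases after an annotated start. The window of *P2ry1* is chr3:61002535-61002834, and those of the 2 starts of *P2ry10* are chrX:107088242-107088541 and chrX:107089083-107089382. Capitals mark matches, on either strand, to 3 short motifs: AGATAA for GATA factors, GAGGAA for PU.1 and other ETS factors, and TGTGGT for RUNX factors. The matches do not overlap with one another in these windows.
P2ry1: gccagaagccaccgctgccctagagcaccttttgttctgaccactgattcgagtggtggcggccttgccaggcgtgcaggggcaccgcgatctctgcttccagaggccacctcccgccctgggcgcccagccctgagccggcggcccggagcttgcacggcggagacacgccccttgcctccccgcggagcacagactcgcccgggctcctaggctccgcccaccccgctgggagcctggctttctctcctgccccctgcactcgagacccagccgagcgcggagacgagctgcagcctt
P2ry10, first start: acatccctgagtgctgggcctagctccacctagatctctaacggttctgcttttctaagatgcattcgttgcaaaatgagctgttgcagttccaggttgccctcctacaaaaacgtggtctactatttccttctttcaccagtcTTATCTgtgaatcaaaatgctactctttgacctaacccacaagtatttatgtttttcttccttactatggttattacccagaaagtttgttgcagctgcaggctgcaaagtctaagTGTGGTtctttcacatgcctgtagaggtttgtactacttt
P2ry10, second start: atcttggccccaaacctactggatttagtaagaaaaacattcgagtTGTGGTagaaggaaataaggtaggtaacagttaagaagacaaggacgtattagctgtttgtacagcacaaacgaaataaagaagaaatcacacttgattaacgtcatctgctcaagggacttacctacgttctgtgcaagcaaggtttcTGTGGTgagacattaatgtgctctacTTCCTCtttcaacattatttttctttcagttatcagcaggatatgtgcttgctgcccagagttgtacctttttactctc
The *P2ry1* window held none of the 3 strings. The first *P2ry10* window held 1 GATA string, read on the minus strand, and 1 RUNX string, and the second held 1 ETS string on the minus strand and 2 RUNX strings. Of 32851 RefSeq promoters of this length, 11.2% held the GATA string, 28.3% the ETS string and 16.8% the RUNX string. Matches to strings this short are a description of the sequence and say nothing about binding.

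*P2ry1* encodes a receptor for ADP that couples to Gq and raises calcium (ENSMUSG00000027765, GENCODE M21, GRCm38, chr3:61002795-61008982, plus strand). Its transcript was high in all 4 week MAC-1- samples and all but absent from 4 week MAC-1+ samples. In 4 week MAC-1- HSCs the 3 samples held 3171, 1681 and 1118 counts, which are 199.0, 63.7 and 67.5 CPM. In 4 week MAC-1+ HSCs they held 0, 2 and 1 counts, so that every MAC-1+ sample was within the limit that a count of 0 allows. The 4 week MAC-1low samples split, with 200, 609 and 607 counts in replicates 1, 3 and 4 (12.3, 31.3 and 22.7 CPM) and 2 counts in replicate 2. At SS the gene was uneven within both populations, at 4, 6 and 606 counts in MAC-1- and 213, 10 and 0 counts in MAC-1low HSCs.

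Ordered by mean level, *P2ry1* stood at 110.1 ± 77.0 CPM (SD, n = 3) in 4 week MAC-1-, 16.6 ± 13.5 CPM (n = 4) in 4 week MAC-1low, 10.6 ± 17.8 CPM (n = 3) in SS MAC-1-, 3.89 ± 6.26 CPM (n = 3) in SS MAC-1low and 0.0551 ± 0.0642 CPM (n = 3) in 4 week MAC-1+ HSCs. The highest population did not overlap with the next, while every later pair of neighbours in this order overlapped. Summed over samples and scaled by library size, the 4 week MAC-1- to MAC-1+ ratio was 2105 (95% exact Clopper-Pearson interval 719.8 to 10210), from 5970 against 3 counts. The ratio of 4 week MAC-1- to 4 week MAC-1low was 6.02 (5.68 to 6.39), and to SS MAC-1- it was 8.60 (7.91 to 9.36). The last of these rests on SS MAC-1- replicate 3, which held 606 of the 616 counts of that population and also had the most detected genes of all libraries, 17576. In the edgeR model the difference of 4 week MAC-1- from SS MAC-1- HSCs was 3.38 (SE 2.01) on the log2 scale with that library and 8.47 without it. The intervals of the ratios above cover counting error only. They leave out the spread between samples and are not a test of *P2ry1*.

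*P2ry10* (ENSMUSG00000050921, chrX:107088492-107104974, plus strand) had the reverse pattern at 4 weeks. No read was counted in any of the 3 4 week MAC-1- samples, whereas the MAC-1+ samples held 266, 200 and 682 counts (12.6, 12.6 and 27.0 CPM). The 4 week MAC-1low samples spread from one end to the other, with 236, 104, 13 and 1 counts (14.5, 4.78, 0.669 and 0.0375 CPM). At SS the MAC-1- samples held 1, 0 and 0 counts and the MAC-1low samples 83, 1 and 1351 counts. Both MAC-1- populations were thus at or below the limit that a count of 0 allows in every sample, and all 3 populations with MAC-1 contained samples well above it.

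The order of mean levels for *P2ry10* was SS MAC-1low, 24.7 ± 39.0 CPM (SD, n = 3), 4 week MAC-1+, 17.4 ± 8.30 CPM (n = 3), 4 week MAC-1low, 4.99 ± 6.66 CPM (n = 4), SS MAC-1-, 0.0244 ± 0.0423 CPM (n = 3), and 4 week MAC-1-, 0 CPM (n = 3). Each population overlapped with its neighbour in this order. Of the 3 populations with the transcript above the limit, the MAC-1+ samples were the most even, and the top rank of SS MAC-1low came from 1 sample at 69.7 CPM. Against a floor of 3 counts per sample, *P2ry10* was at least 108-fold higher in 4 week MAC-1+ and at least 31.0-fold higher in 4 week MAC-1low than in 4 week MAC-1- HSCs. The second bound rests on MAC-1low replicate 1, which held 236 of the counts, and was 11.4-fold without it.

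**Figure D1:**
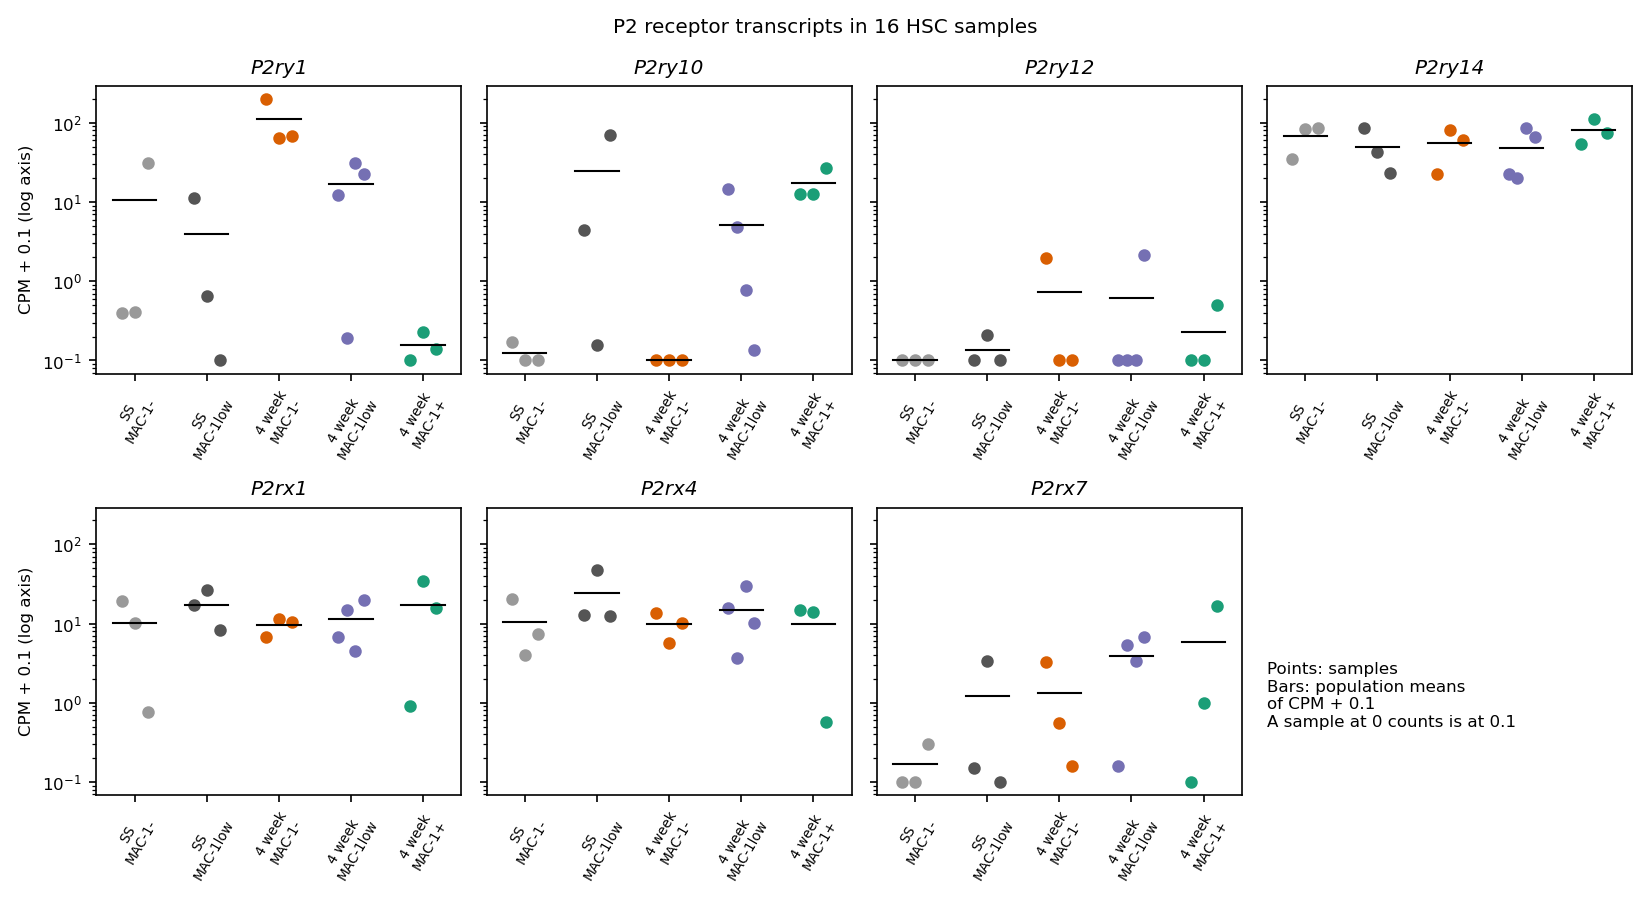
CPM + 0.1 on a log axis for the 7 P2 receptor genes in each of the 16 samples, by HSC population, with points for samples and bars for population means. *P2ry1* is highest in the 3 4 week MAC-1- samples (63.7 to 199.0 CPM), where *P2ry10* is at 0, while *P2ry14* lies between 19.7 and 111.0 CPM in all samples.

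Taking more than 3 counts as detection, 8 of the 16 samples held *P2ry1* without *P2ry10*, 5 held *P2ry10* without *P2ry1*, and 3 held both. No sample lacked both. All 6 MAC-1- samples were among those with *P2ry1* alone, and all 3 MAC-1+ samples were among those with *P2ry10* alone. In SS MAC-1- replicates 1 and 2 *P2ry1* was at 4 and 6 counts, just over this cut. The 3 samples with both transcripts were MAC-1low, 1 from SS and 2 from 4 weeks. These counts describe the genes that the choice of the set rested on.

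The choice of genes was made on the 4 week populations, and *P2ry10* was also tested at SS. That test was not free of the choice, because the gene passed the filter on low counts only with the 4 week samples. At SS it exceeded 3 counts in 2 MAC-1low samples and 0 MAC-1- samples. When only the SS groups were fitted, 4 members passed the filter, and *P2ry10*, *P2rx7* and *P2ry12* were not among them. For *P2ry10* the fitted difference of SS MAC-1low from SS MAC-1- HSCs was 9.80 (SE 2.87) on the log2 scale. This was the largest of the 6 receptor genes in the model, but it did not pass the threshold (edgeR adjusted p = 0.415, unadjusted p = 0.00462). The summed counts were 1435 in MAC-1low and 1 in MAC-1- HSCs, a ratio of 1328 (95% exact interval 237.9 to 52480, for counting error only). SS MAC-1low replicate 3 supplied 1351 of those counts, and SS MAC-1low replicate 2, with 1 count, overlapped with the MAC-1- samples. Without replicate 3 the edgeR difference was 6.30 (adjusted p = 0.584). DESeq2 called the gene (adjusted p = 0.000284). Over the alternatives that tested it, other than leaving out samples, the adjusted p ran from 0.000284 to 0.642. DESeq2 called 5.24% of all tested genes in this comparison, edgeR 0.0146% and limma-voom 0.0%.

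For *P2ry1* at SS the difference of MAC-1low from MAC-1- was -1.44 (SE 1.88), with an edgeR adjusted p of 0.914. Its direction rested on SS MAC-1- replicate 3: without that library the difference became 3.65 (edgeR adjusted p = 0.632). Of the 6 receptor genes in the model, edgeR called 0 at SS at an adjusted p below 0.1, 1 had an unadjusted p below 0.05 (*P2ry10*), as did 9.36% of all tested genes, DESeq2 called 1 and limma-voom 0. The samples of the SS populations did not separate for any of the 7 genes, compared with 11.3% of all tested genes.

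Among the 4 week populations 2 of the 7 genes, *P2ry1* and *P2ry10*, did not overlap between MAC-1+ and MAC-1- samples, beside 21.7% of all 13661 tested genes. The same 2 did not overlap between MAC-1low and MAC-1- samples (10.8% of all genes), where for *P2ry10* the gap was 1 count in MAC-1low replicate 4 against 0, within the limit that a count of 0 allows, and 0 of 7 separated between MAC-1+ and MAC-1low samples (8.23%). The fitted log2 differences of MAC-1+ from MAC-1- HSCs were -10.91 (SE 2.88) for *P2ry1* and 11.42 (SE 3.09) for *P2ry10*. Where a group is at or near 0 counts these fitted values and their SEs depend on the prior count and are no bounds. The SEs were derived from the F statistic of the model and are given here as a description. MAC-1low differed from MAC-1- by -2.73 (SE 1.76) for *P2ry1* and 9.61 (SE 2.90) for *P2ry10*. Without 4 week MAC-1low replicate 1 the latter was 8.18, and the former was -1.98 without 4 week MAC-1- replicate 1. MAC-1+ differed from MAC-1low by -8.18 (SE 2.60) for *P2ry1* and 1.80 (SE 1.79) for *P2ry10*. There *P2ry1* ran from -9.24 without MAC-1+ replicate 2 to -7.62 without MAC-1+ replicate 1, and *P2ry10* from 1.35 without MAC-1+ replicate 3 to 3.25 without MAC-1low replicate 1. These comparisons share samples with one another. Between 4 week and SS MAC-1low HSCs the levels of both genes overlapped, with differences of 2.09 (SE 1.84) for *P2ry1* and -2.31 (SE 1.81) for *P2ry10*. Without SS MAC-1low replicate 1 the former was 5.85, and without SS MAC-1low replicate 3 the latter was 1.15.

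**Figure D2:**
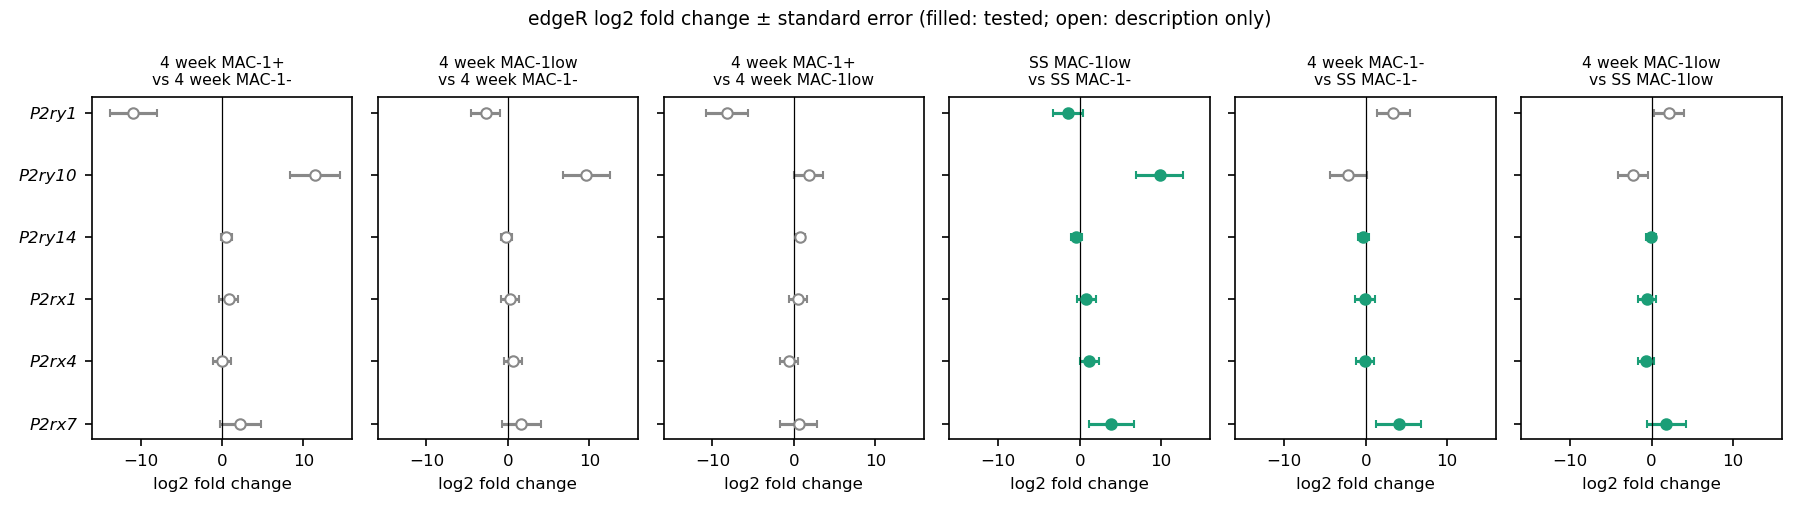
Fitted edgeR log2 fold changes (points) with standard errors derived from the F statistic (bars) for the 6 P2 receptor genes in the model, 1 panel per comparison, the first population over the second, with filled points where a test was made and open points for description. *P2ry1* and *P2ry10* lie on opposite sides of 0 in the first panel (-10.91 and 11.42), and *P2ry14* stays within 1 log2 unit of 0 in all panels.

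The 4 week MAC-1- samples also stood apart in some genes of megakaryocytes and platelets, where *P2ry1* is known to be expressed. The summed level of 10 such genes, of which 8 exceeded 3 counts in at least 1 sample of 4 week MAC-1+ HSCs and 9 in each of the other populations, was 4211 to 6699 CPM in 4 week MAC-1-, 358.9 to 839.9 in 4 week MAC-1low and 137.9 to 217.0 in 4 week MAC-1+ HSCs. At SS it was 628.2 to 1103 CPM in MAC-1- and 298.7 to 642.8 in MAC-1low HSCs. *Pf4*, *Ppbp*, *Gp1bb*, *Gp9* and *Itga2b* were each higher in every 4 week MAC-1- sample than in any sample of the other populations. *Gp1ba*, *Gp5*, *Gp6*, *Treml1* and *Clec1b* overlapped, and *Clec1b* had a median of 11.91 CPM in 4 week MAC-1+ and 10.51 CPM in 4 week MAC-1- HSCs. Most of the sum was *Pf4*, platelet factor 4, with a median of 4728 CPM in 4 week MAC-1- and 116.7 CPM in 4 week MAC-1+ HSCs, while *Gp1bb*, a subunit of the receptor for von Willebrand factor, was at 0 in all 3 4 week MAC-1+ samples and *Gp6*, the platelet collagen receptor, in 14 of the 16 samples. In 4 week MAC-1low replicates 1, 2, 3 and 4 the sum was 471.2, 779.3, 358.9 and 839.9 CPM. *P2ry1* was at 12.3, 0.092, 31.3 and 22.75 CPM in the same order. In bulk samples a change in the share of a cell type and a change in RNA per cell cannot be told apart, and the part of these genes in the *P2ry1* and *P2ry10* results was not tested.

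Genes of neutrophils moved the other way, with a sum over 7 genes of 164.1, 949.6 and 7255 CPM in the 4 week MAC-1+ samples and 23.1 to 69.7 CPM in 4 week MAC-1- samples, and 4 to 7 of the 7 genes exceeded 3 counts in each MAC-1+ sample, with *Elane* and *Mpo* at 0 in replicates 1 and 2. *P2ry10* was at 12.6, 12.6 and 27.0 CPM in those MAC-1+ samples. At SS the sum was 131.4 to 168.1 CPM in MAC-1low and 79.3 to 111.3 CPM in MAC-1- HSCs. A list of 7 HSC genes stood at 2103 to 3173 CPM in 4 week MAC-1+ and at 530.1 to 703.6 CPM in 4 week MAC-1- samples. The summed level of 5 erythroid genes was 77.3 to 170.4 CPM in 4 week MAC-1+ and 17.4 to 32.5 CPM in 4 week MAC-1- samples, with *Hbb-bt* counted in all of them. That of 6 T and NK cell genes had a median of 43.7 CPM and a highest value of 175.9 CPM in 4 week MAC-1+ samples and was 322.9 to 643.8 CPM in 4 week MAC-1- samples. Most of it was *Nkg7*, a granule protein of NK cells, while *Cd3e*, *Cd3g* and *Ncr1* were at 0 in all samples of both populations. The part of these lists in the *P2ry1* and *P2ry10* results was not tested.

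**Figure D3:**
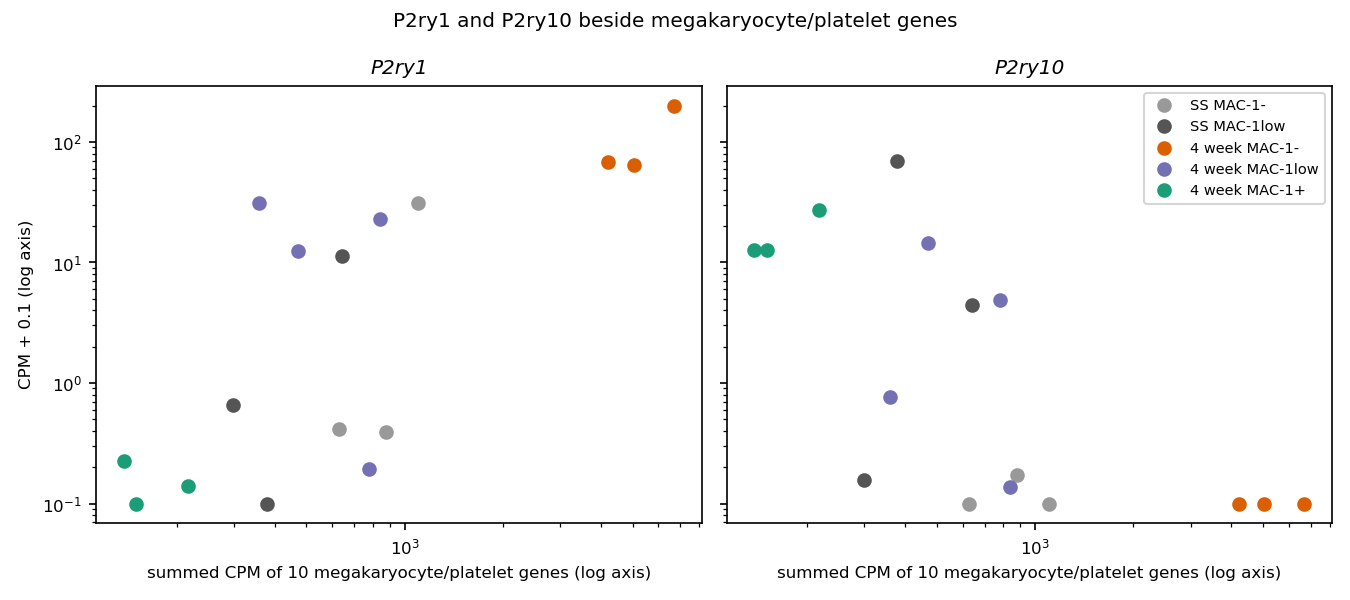
*P2ry1* (left) and *P2ry10* (right) as CPM + 0.1 against the summed CPM of 10 megakaryocyte and platelet genes, both on log axes, 1 point per sample and 1 colour per population. The 3 4 week MAC-1- samples lie at 4211 to 6699 CPM on the horizontal axis, with the highest *P2ry1* and no *P2ry10*, while the other samples, at most at 1103 CPM, vary widely in both genes.

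*P2ry14* (ENSMUSG00000036381, chr3:59113855-59153618, minus strand), the UDP-glucose receptor, was the most even of the 7 genes. It was counted in all 16 samples, from 358 to 2141 counts. The means were 79.8 ± 28.9 CPM (SD, n = 3) in 4 week MAC-1+, 68.0 ± 28.5 (n = 3) in SS MAC-1-, 54.9 ± 29.8 (n = 3) in 4 week MAC-1-, 49.9 ± 31.6 (n = 3) in SS MAC-1low and 48.6 ± 32.7 (n = 4) in 4 week MAC-1low HSCs, and all neighbours in that order overlapped. Its biological coefficient of variation in edgeR was 0.581, against a trend of 0.606 for genes of that level. *P2rx1* and *P2rx4* lay further below their trends, at 0.9755 against 1.152 and 0.9289 against 1.122. *P2ry1*, *P2ry10* and *P2rx7* lay above theirs, at 1.46 against 0.838, 1.514 against 1.309 and 1.914 against 1.791. For *P2ry14* SS MAC-1low differed from SS MAC-1- HSCs by -0.45 (SE 0.662, edgeR adjusted p = 0.932).

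Of the channel genes, *P2rx1* (ENSMUSG00000020787, chr11:72999103-73015200, plus strand), an ATP-gated channel of platelets and smooth muscle, was counted in every sample. Its lowest values were 13 counts in SS MAC-1- replicate 3 and 17 counts in 4 week MAC-1+ replicate 1, and the other 14 samples held 86 to 539 counts. Means lay between 9.41 ± 2.52 CPM (SD, n = 3) in 4 week MAC-1- and 17.2 ± 8.94 CPM (n = 3) in SS MAC-1low HSCs, and all populations overlapped with their neighbours in rank. *P2rx1* did not share the level of *P2ry1* in 4 week MAC-1- HSCs, where its 3 samples stood at 6.59, 11.4 and 10.2 CPM. SS MAC-1low differed from SS MAC-1- HSCs by 0.79 (SE 1.19, edgeR adjusted p = 0.936).

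*P2rx4* (ENSMUSG00000029470, chr5:122707544-122729738, plus strand), an ATP-gated channel found in many tissues and in lysosomes, was also counted in every sample, from 12 to 834 counts. The lowest sample was 4 week MAC-1+ replicate 3, at 0.475 CPM, while the other MAC-1+ samples stood at 14.7 and 13.8 CPM. Means ran from 9.65 ± 3.95 CPM (SD, n = 3) in 4 week MAC-1- to 24.0 ± 19.6 CPM (n = 3) in SS MAC-1low HSCs, where replicate 2 held 834 counts (46.7 CPM) and the others 246 and 241 counts. The SS populations differed by 1.19 (SE 1.13, edgeR adjusted p = 0.844).

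*P2rx7* (ENSMUSG00000029468, chr5:122643911-122691432, plus strand), the channel that responds to high ATP and can activate the NLRP3 inflammasome, was sporadic. It exceeded 3 counts in 9 of the 16 samples, with 51, 12 and 1 counts in 4 week MAC-1-, 1, 114, 64 and 179 in 4 week MAC-1low and 0, 14 and 419 in 4 week MAC-1+ samples. At SS it had 0, 0 and 4 counts in MAC-1- and 1, 59 and 0 in MAC-1low samples. Of the 10 4 week samples 7 exceeded 3 counts, and of the 6 SS samples 2 did. The SS populations differed by 3.88 (SE 2.73, edgeR adjusted p = 0.737), and by -1.24 (adjusted p = 0.988) without SS MAC-1low replicate 2, the library with the 59 counts. Like *P2ry10*, *P2rx7* passed the filter on low counts only with the 4 week samples, so its test at SS was not free of them.

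*P2ry12* (ENSMUSG00000036353, chr3:59216272-59262871, minus strand), the Gi-coupled ADP receptor of platelets and microglia, was at 0 in 12 of the 16 samples and did not pass the filter on low counts. It had 30 counts in 4 week MAC-1- replicate 1, 54 in 4 week MAC-1low replicate 4, 10 in 4 week MAC-1+ replicate 3 and 2 in SS MAC-1low replicate 2. The platelet receptors for ADP thus differed in these HSCs: *P2ry1* reached 3171 counts in the population where *P2ry12* was at 30, 0 and 0.

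Per kilobase of exon the median level over the 16 samples was 5.72 CPM for *P2ry14*, 4.12 for *P2rx1*, 1.80 for *P2rx4*, 1.36 for *P2ry1*, 0.124 for *P2ry10*, 0.0553 for *P2rx7* and 0 for *P2ry12*. By the mean of the same measure *P2ry1* came first, at 6.41 CPM per kilobase, because of the 4 week MAC-1- samples. Exon lengths came from GENCODE M21 and ran from 2546 bases for *P2ry12* to 11059 bases for *P2ry14*.

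For the 4 members in the model that were not the reason for the choice, 4 week HSCs were also compared with SS HSCs of the same MAC-1 class; these tests share the 4 week samples with the choice. In MAC-1- HSCs edgeR called 0 of the 4 (0.432% of all tested genes were called), and 0 of the 4 had an unadjusted p below 0.05 (10.4% of all genes did). The differences were -0.31 (SE 0.661) for *P2ry14*, -0.07 (SE 1.19) for *P2rx1*, -0.12 (SE 1.12) for *P2rx4* and 4.02 (SE 2.75) for *P2rx7*, with adjusted p of 0.957, 1.0, 0.997 and 0.647. When only the MAC-1- groups were fitted, 3 of these 4 genes passed the filter on low counts, and *P2rx7* was not among them. In MAC-1low HSCs edgeR again called 0 of the 4 (0.0439% of all genes), with 0 at an unadjusted p below 0.05 (8.89% of all genes). There the differences were -0.04 (SE 0.618), -0.60 (SE 1.10), -0.70 (SE 1.04) and 1.77 (SE 2.39), with adjusted p of 0.952 to 0.999. For *P2rx7* the first of these differences went to 1.80 when 4 week MAC-1- replicate 1 was left out and to 7.61 when it was SS MAC-1- replicate 3, and the second was 1.18 without SS MAC-1low replicate 3 and 6.87 without SS MAC-1low replicate 2. DESeq2 and limma-voom called 0 of the 4 in both comparisons. A single gene, *P2ry1*, of the 7 did not overlap between 4 week and SS MAC-1- samples, beside 16.6% of all genes, and 0 of 7 separated in the MAC-1low comparison, beside 10.4%.

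Several of these small differences changed sign with 1 library. In MAC-1- HSCs *P2ry14* went to 0.06 without 4 week replicate 1, *P2rx1* to 0.82 without SS replicate 1 and to 0.12 without 4 week replicate 1, and *P2rx4* to 0.78 without SS replicate 1 and to 0.16 without 4 week replicate 2. In MAC-1low HSCs *P2ry14* went to 0.57 without SS replicate 1 and to 0.20 without either 4 week replicate 1 or 2, and *P2rx4* to 0.20 without SS replicate 2. Between the 4 week MAC-1+ and MAC-1- populations *P2ry14* differed by 0.54 (SE 0.662), *P2rx1* by 0.83 (SE 1.19), *P2rx4* by 0.0029 (SE 1.12) and *P2rx7* by 2.23 (SE 2.53), all less than their standard error. Of these, *P2rx7* went to -1.43 without 4 week MAC-1+ replicate 3, *P2rx1* to -0.15 without MAC-1+ replicate 2, and *P2rx4* to -0.44, -0.32 and -0.28 without MAC-1+ replicate 1, MAC-1+ replicate 2 and MAC-1- replicate 2.

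Some of these genes are neighbours. *P2rx7* ends 16111 bases before *P2rx4* on chromosome 5, on the same strand, and the pair had unlike levels, *P2rx4* in 16 and *P2rx7* in 9 samples. *P2ry12* and *P2ry14* both lie within *Med12l*, a Mediator subunit gene on the opposite strand. Their exons share 9 and 0 bases with those of *Med12l*, which had a median of 403.5 counts. *P2ry1* shares 992 exon bases with *Gm37035* on the opposite strand, which had at most 16 counts. Whether strand was used in counting is not given in the sources used here, so that reads in shared bases cannot be assigned. *P2ry10* lies 43952 bases from its paralog *P2ry10b*, and how reads common to both were counted is not given either, so their split is uncertain.

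The 9 other P2 receptor genes were mostly silent. *P2ry4*, *P2ry6*, *P2rx2* and *P2rx5* did not exceed 2 counts in any sample. *P2ry2*, a receptor for ATP and UTP, exceeded 3 counts in 3 samples, 1 of SS MAC-1low (12.98 CPM) and 4 week MAC-1+ replicates 2 and 3 (5.84 and 9.49 CPM). *P2ry13*, an ADP receptor 5389 bases from *P2ry12*, had 687 counts in 4 week MAC-1+ replicate 2 (43.2 CPM) and exceeded 3 counts in 4 samples. *P2rx3* had 89 counts in the same MAC-1+ library, and *P2rx6* did not exceed 21 counts anywhere. *P2ry10b*, the paralog of *P2ry10*, was at 3.85 ± 0.737 CPM (SD, n = 3) in SS MAC-1low and 0.342 ± 0.592 CPM (n = 3) in SS MAC-1- HSCs, a difference of 3.46 (SE 2.56, edgeR adjusted p = 0.756). At 4 weeks it had 4.49 ± 6.32 CPM (n = 3) in MAC-1+, 3.73 ± 4.03 CPM (n = 4) in MAC-1low and 0.418 ± 0.725 CPM (n = 3) in MAC-1- HSCs. Unlike *P2ry10* it was at 0 in 1 of the MAC-1+ samples and had 20 counts in 1 of the 4 week MAC-1- samples.

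**Figure D4:**
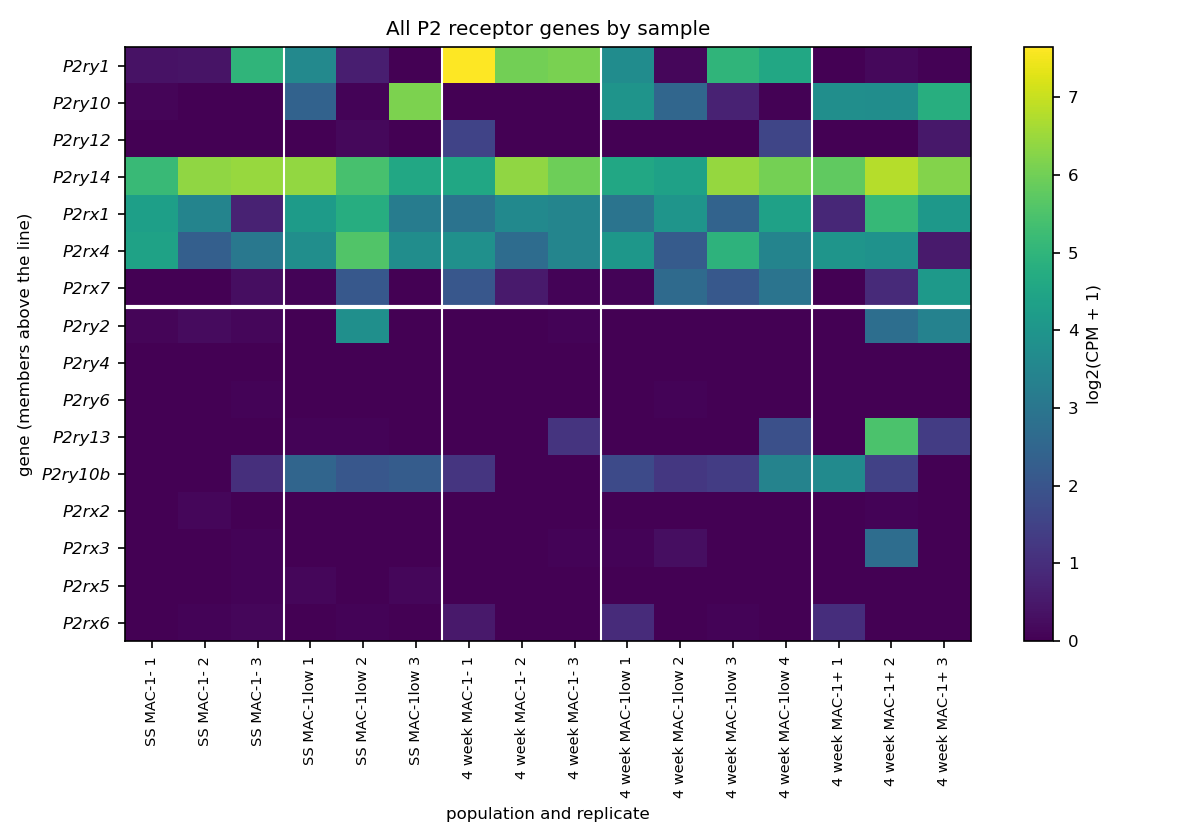
log2(CPM + 1) of all 16 P2 receptor genes (rows, the 7 described genes above the line) in the 16 samples (columns, by population and replicate), with lighter colours for higher levels. *P2ry14*, *P2rx1* and *P2rx4* are present in all samples, *P2ry1* and *P2ry10* mostly in different samples, and *P2ry4* in none.

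The rest of the purinergic pathway was followed through lists of 60 genes, the other P2 receptors included, for adenosine receptors, ectonucleotidases, nucleotide release and transport, ligand metabolism, lipid receptors, G proteins with calcium signalling, and the inflammasome, of which 41 were tested. edgeR called 0 of the 41 in each of the 6 comparisons, in either direction. At an unadjusted p below 0.05 there were 4 in 4 week MAC-1+ against MAC-1- HSCs (3.25% of all tested genes were called there), 2 in 4 week MAC-1low against MAC-1- (0.278% called) and 1 in 4 week MAC-1+ against MAC-1low (0.0% called). There were 3 between the SS populations, 4 between 4 week and SS MAC-1- and 6 between 4 week and SS MAC-1low HSCs. Of all tested genes 13.4%, 7.25%, 6.85%, 9.36%, 10.4% and 8.89% had such a p in the same order. limma-voom called 0 in all 6 comparisons, and DESeq2 called 1, 1, 1, 3, 2 and 4 in the order given. Of all tested genes DESeq2 called 9.54%, 2.94%, 2.23%, 5.24%, 6.12% and 3.84% in that order, and limma-voom 6.52%, 2.34%, 0.0366%, 0.0%, 0.637% and 0.139%. The median log2 fold change of the 41 genes was 0.18, 0.17, 0.12, 0.0077, -0.71 and -0.04, beside 0.07, 0.05, -0.0021, 0, -0.03 and -0.02 over all tested genes. With limma-voom the fifth of these medians, for 4 week against SS MAC-1- HSCs, was -0.12 and the last was 0.36.

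In edgeR the lowest p among the pathway genes belonged to *Casp1*, the inflammasome protease that matures interleukin-1, which stood at 315.0 ± 54.8 CPM (SD, n = 4) in 4 week MAC-1low and 118.8 ± 14.5 CPM (n = 3) in SS MAC-1low HSCs. The populations did not overlap, at 256.7 to 388.2 against 106.2 to 134.7 CPM, beside 10.4% of all tested genes. The difference was 1.41 (SE 0.326, edgeR adjusted p = 0.209). DESeq2 and edgeR without a filter called *Casp1* (adjusted p = 0.00166 and 0.0312). In this comparison DESeq2 called 3.84% of all tested genes. Without a filter edgeR called 39 genes higher and 10 lower, of 31871. *Plcb2*, a phospholipase C activated by G proteins, was next, at -2.06 (SE 0.495, edgeR adjusted p = 0.231) in the same comparison. *Gnaq*, the Gq subunit to which P2Y1 couples, differed by 1.45 (SE 0.548, edgeR adjusted p = 0.253) for MAC-1+ against MAC-1- HSCs at 4 weeks, the direction opposite to that of *P2ry1*. *Plcb2* and *Gnaq* were singled out after their values were seen.

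Among the highest genes of their lists, *Gja1* (connexin 43, a channel through which ATP can leave cells) averaged 50.5 ± 24.1 CPM (SD, n = 3) in SS MAC-1- and 12.97 ± 10.3 CPM (n = 3) in SS MAC-1low HSCs, a difference of -1.96 (SE 1.36, edgeR adjusted p = 0.727). *Ugp2*, which makes UDP-glucose, the ligand of P2Y14, lay between 54.2 ± 29.7 CPM (n = 3) in SS MAC-1low and 97.1 ± 38.3 CPM (n = 3) in 4 week MAC-1- HSCs. *Ada*, the adenosine deaminase, averaged 6.91 to 19.9 CPM, and *Gnai3*, a Gi subunit, 138.7 to 203.4 CPM over the 5 populations. The edgeR adjusted p of these 4 genes in the 6 comparisons were between 0.720 and 1.0.

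The genes most like *P2ry1* over the 16 samples, among 11069 genes with a mean of at least 50 counts, were *Snhg4*, *Gm10705*, *E230008N13Rik*, *Elavl1* and *Fundc2*, with Pearson r of log2 CPM of 0.886, 0.882, 0.836, 0.832 and 0.826. *E230008N13Rik* was the one with a similar range, at 19.6 ± 13.5 CPM (SD, n = 3) in 4 week MAC-1- and 0.0209 ± 0.0363 CPM (n = 3) in 4 week MAC-1+ HSCs, while *Snhg4* stood at 112.7 ± 21.9 and 42.4 ± 10.5 CPM. The genes most like *P2ry10* were *Hbb-bt*, *Ndrg4*, *Hfe*, *Rdh12* and *H2afy*, with r of 0.782, 0.775, 0.773, 0.767 and 0.767. *Hbb-bt*, an adult beta-globin, stood at 85.1 ± 13.7 CPM (n = 3) in 4 week MAC-1+ and 10.7 ± 1.93 CPM (n = 3) in 4 week MAC-1- HSCs, and *Hfe*, a regulator of iron uptake, at 20.9 ± 19.6 and 0.0253 ± 0.0438 CPM. These correlations are descriptions over samples that fall into populations and share library depth.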

How the data were processed

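RNA of 16 sorted HSC samples was measured. The authors deposited 1 table of raw read counts per gene, for which reads were aligned with STAR within an nf-core pipeline, with no normalization. No program for counting, genome build, annotation or strand setting is stated (not given in the sources used here), and the labels name DESeq2 as a tool. Samples were grouped by their labels. GENCODE M21 (GRCm38) held 45229 of the 46078 identifiers, and promoters came from RefSeq (GRCm38.p6).

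Counts were scaled with TMM factors and filtered on low counts at default settings, leaving 13661 genes, and tested with edgeR 4.0.16 (R 4.3.3) in 1 robust quasi-likelihood model of all samples with a mean per population. Adjusted p are Benjamini-Hochberg values with a threshold of 0.1. CPM use TMM-scaled library sizes, and log2 CPM a prior count of 2. SDs are over samples. The SE of an edgeR log2 fold change was taken as its absolute value divided by the square root of the quasi-likelihood F statistic. It is approximate, and with a group at or near 0 counts it does not measure the error of the fold change. Depth was 13781278 to 28580658 counts, which limits precision for genes with few counts. Counts of replicates differed by more than sampling noise. The steps were tested on simulated data. Plots used Python 3.11.15 and matplotlib 3.10.9.

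The receptor genes and all gene lists were chosen with earlier results of these data known. Named are the receptor genes, the other P2 receptors, pathway genes called or highest in their list, neighbours, sort markers and, for *P2ry1* and *P2ry10*, the 5 genes with the highest Pearson r. Genes that are named outside this rule are said to be.

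Alternatives were DESeq2 1.42.0, limma-voom (limma 3.58.1) with sample weights, edgeR with size factors from DESeq2, testing without the filter, a stricter filter (mean of at least 50 counts), only the groups compared, the replicate number as a block, and leaving out each sample in turn. Protein sequences were not used here.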

Additional observations from a re-analysis of the deposited data

Results flagged for a closer look

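Of the 7 receptor genes and 16 named pathway genes, 17 had a sample above 3 counts in 4 week MAC-1low HSCs, the only population with enough samples for Dixon's test, and the other 6 were not examined. Of the 17, 5 had a sample (n = 4) that stood apart from the other 3 by that test at the 95% level. Chance gives about 1 in 20, a share that does not hold for *P2ry12*, *P2ry13* and *Gpr34*: with 3 samples at 0 any other value passes, so their values are a description. *P2ry12* was at 2.02 CPM in replicate 4 and at 0 in the others. *P2ry13*, its neighbour, was at 2.66 CPM in the same replicate and at 0 in the others. *P2ry10b* was also highest there, at 9.74 CPM, with the next sample at 2.27 CPM. In replicate 1 *P2rx6* was at 0.919 CPM, with the next sample at 0.0514 CPM, and *Gpr34*, a receptor for lysophosphatidylserine, was at 12.9 CPM and at 0 in the others.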

How the results depend on the processing

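DESeq2 called 1 receptor gene (*P2ry10*) between the SS populations and, of the pathway genes, *Gnaq* (1) in 4 week MAC-1+ against MAC-1-, *P2ry2* (1) in 4 week MAC-1low against MAC-1- and again (1) in MAC-1+ against MAC-1low, 3 at SS (*Slc35d2*, *Plcb1*, *Stim1*), 2 between the MAC-1- populations (*Gna13*, *Plcb2*) and 4 between the MAC-1low populations (*Slc35d2*, *Plcb2*, *P2ry2*, *Casp1*), where edgeR called 0; those outside the P2 receptors, *Casp1* excepted, are named after their values were seen. *P2ry2* was at 0 in all 4 week MAC-1low samples, so that its call against 4 week MAC-1- rests on 1 count in 1 sample and that against SS MAC-1low on 1 sample with 232 counts. edgeR without a filter called 1, *Casp1*, between the MAC-1low populations. The other alternatives, leaving out each sample included, called 0 receptor genes and 0 pathway genes. For 4 week MAC-1+ against MAC-1-, the log2 fold change of *P2ry10* was 10.88 with DESeq2 and 9.35 with limma-voom, and without single samples it ran from 10.92 to 11.62, and that of *P2ry1* from -11.94 to -10.14. Between 4 week MAC-1low and MAC-1-, *P2ry1* ran from -3.20 to -1.98 and *P2ry10* from 8.18 to 9.99, and was 5.48 with limma-voom. With limma-voom the 4 week to SS difference changed sign to 0.47 for *P2rx1* and 0.011 for *P2rx4* in MAC-1- HSCs and to 0.13 for *P2ry14* in MAC-1low HSCs; the cause was not tested. Without single samples the SS difference ran from -5.23 to 3.65 for *P2ry1* and from -1.24 to 7.46 for *P2rx7*. In MAC-1- HSCs the 4 week to SS difference then ran from -0.71 to 0.061 for *P2ry14*, from -0.63 to 0.82 for *P2rx1* and from -0.52 to 0.78 for *P2rx4*. In MAC-1low HSCs it ran from -0.49 to 0.57 for *P2ry14* and from -1.32 to 0.20 for *P2rx4*.

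The replicate numbers showed no clear pairing of the samples. Over 30 pairs with the same number the correlation of deviations from the population means ran from -0.0249 to 0.0397. Of the 16 samples, 6 correlated best with their own number. The column names hold other numbers, which place 4 week MAC-1low replicate 3 next to MAC-1- replicate 2, and MAC-1low replicate 4 next to MAC-1- replicate 3. Sets by those numbers were not tested, so samples that belong together are not excluded. With the replicate block 0 receptor genes and 0 pathway genes were called, the 4 week to SS MAC-1- difference of *P2rx1* changed sign to 0.13, that of *P2ry1* between 4 week MAC-1low and MAC-1- was -4.26, and that of *P2rx7* for MAC-1+ against MAC-1- HSCs at 4 weeks was -1.92. *P2ry12*, *P2ry10* and *P2rx7* were at 0 in 12, 5 and 4 samples, each of which allows up to 3 counts.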
